A study of Mus musculus with 9 samples.

Results

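Itaconate is a metabolite that activated macrophages make from the TCA cycle, and 9 genes around it are described here, 9 of the 54532 genes with a deposited value. They were picked by gene symbol, with earlier results of these data known. Acod1 encodes the enzyme that makes itaconate. Cs, Idh2, Idh3a, Ogdh, Fh1 and Mdh2 encode mitochondrial enzymes of the cycle or next to it. Slc25a1 and Acly encode the carrier that brings citrate out of mitochondria and the cytosolic enzyme that splits it. All 9 were found, each in a single row, and all 9 passed the filter on low values.

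RNA-seq was performed on RAW264.7 cells, a mouse macrophage line whose labels give a wild-type genotype and ascites as the tissue. The control group was untreated, the LPS group received LPS at 1 μg/ml for 6 h, and the LPS + G-CDs group received the same LPS with 400 μg/ml of G-CDs for 6 h. G-CDs are carbon dots, nanoparticles that the study prepared from roasted Glycyrrhiza, and LPS is a bacterial outer membrane component that macrophages sense. Each group held 3 libraries. The labels of the last group name G-CDs in the titles and LPS alone as the treatment, so the presence of both follows the study's methods. All groups are of a single cell line, so no other macrophage is represented. The labels do not say whether the libraries of a group came from separate cultures, and the study's mention of independent experiments does not name the sequencing. The p-values then measure the spread between these samples, which may be technical.

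In the TCA cycle, citrate synthase joins acetyl-CoA to oxaloacetate, citrate is turned into isocitrate by way of cis-aconitate, and a series of dehydrogenases returns it to oxaloacetate. In macrophages that meet LPS, Acod1 removes the carboxyl group of cis-aconitate and so diverts carbon from the cycle to itaconate. Itaconate is known to inhibit succinate dehydrogenase and to act on Keap1, and citrate that leaves the mitochondria feeds fatty acid synthesis and protein acetylation.

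Values are FPKM, which is reads per gene scaled to gene length and library size, so that levels of different genes can be compared per length. Between 14752400 and 17312255 reads lay on genes in a library, and the 8 genes other than Acod1 had between 1075 and 10820 reads each. Macrophage identity was visible in all groups, since 8 of 8 macrophage markers reached an FPKM of 1 in each group. The summed FPKM of 10 markers of other cell types was between 0.443 and 0.558 in control, between 0.293 and 1.27 in LPS and between 1.06 and 2.54 in LPS + G-CDs libraries, and 1 of the 10, S100a8, reached an FPKM of 1. The part of these traces in the results was not tested. The libraries of a group were less alike in the control and LPS + G-CDs groups, where the median SD of a gene on the log2(FPKM + 1) scale was 0.244 and 0.259, than in the LPS group, where it was 0.087.

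Acod1 lies at chr14:103046977-103056573 on the plus strand of GRCm38, with 5 exons in its longest GENCODE model. It is the member that LPS moved most, Idh2 is the other that passed the test, and Cs is shown beside them as a cycle gene whose level differed little. The RefSeq sequence (GRCm38.p6) upstream of the deposited start of each of the 3 genes is given below on its coding strand. The windows were chr14:103046762-103046976 for Acod1, chr7:80115393-80115600 (minus strand) for Idh2 and chr10:128337477-128337726 for Cs. Capitals mark matches to the motifs searched.
Acod1: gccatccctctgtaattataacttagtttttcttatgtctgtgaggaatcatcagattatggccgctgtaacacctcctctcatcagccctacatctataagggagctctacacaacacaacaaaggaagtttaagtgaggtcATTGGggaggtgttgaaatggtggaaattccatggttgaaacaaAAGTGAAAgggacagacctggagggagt
Idh2: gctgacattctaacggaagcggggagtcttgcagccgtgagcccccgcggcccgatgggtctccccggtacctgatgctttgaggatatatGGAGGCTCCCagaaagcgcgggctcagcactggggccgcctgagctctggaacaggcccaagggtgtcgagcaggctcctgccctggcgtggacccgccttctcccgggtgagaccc
Cs: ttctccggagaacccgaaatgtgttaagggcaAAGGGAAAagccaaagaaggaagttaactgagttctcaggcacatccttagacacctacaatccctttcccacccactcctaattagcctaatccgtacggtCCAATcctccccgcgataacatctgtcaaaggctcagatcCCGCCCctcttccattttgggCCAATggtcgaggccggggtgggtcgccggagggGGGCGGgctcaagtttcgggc
The 250 bases before each RefSeq start were searched on both strands for 8 motifs. These were the IRF core AANNGAAA, the κB consensus, the TATA box TATAAA, the element CCAAT, the GC box GGGCGG, the cyclic AMP response element TGACGTCA, the antioxidant response core TGACNNNGC and the ERR site AAGGTCA. Of all 32817 mouse windows of that length, 21.3% held the IRF core, 7.2% the κB consensus, 12.4% the TATA box, 33.8% the CCAAT element, 32.7% the GC box, 1.5% the cyclic AMP response element, 10.2% the antioxidant response core and 4.1% the ERR site.

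Counted from the RefSeq start, the Acod1 window held the IRF core at -63 and the CCAAT element at -107, and the TATA box at -28 in bases not printed because they lie inside the deposited gene. In Idh2 the capitals mark a match to the κB consensus at -159, and the window also held the CCAAT element at -44, which runs past the end of the printed bases, and the GC box at -38 and -18, in bases not printed. The Cs window also held the IRF core, at -218, as well as the CCAAT element at -116 and -55 and the GC box at -76 and -21. None of these matches overlapped another. An IRF core thus stood before a gene that LPS moved and before a gene whose difference did not pass the test. Of the 9 genes, 8 had a RefSeq window, and Idh3a had none in the table used.

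In control cells Acod1 was close to the filter on low values. Its FPKM was 2.26, 2.73 and 1.95 in the 3 control libraries (2.31 ± 0.395, SD, n = 3), from between 91 and 122 reads. With LPS it was 2618, 2673 and 2582 (2624 ± 46.0), and it ranked 8th among all 54532 genes in each of the 3 libraries. With LPS + G-CDs it was 2312, 2267 and 2233 (2271 ± 39.6). All LPS libraries lay far above all control libraries, and all LPS + G-CDs libraries lay below all LPS libraries. In bulk RNA, fewer cells that express a gene and less RNA per cell cannot be told apart.

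Acod1 rose with LPS, with a ratio of group means of 1130 and a log2 difference of 9.64 ± 0.14 (SE; limma, Benjamini-Hochberg adjusted p = 2e-09). The adjusted p stayed between 3.5e-10 and 1.5e-07 in 19 alternative analyses. Against the LPS group, Acod1 in the LPS + G-CDs group had a ratio of 0.865 and a log2 difference of -0.21 (95% interval -0.52 to 0.10; limma, adjusted p = 0.40), which did not pass the test. The fit shares 1 spread over all 3 groups, so this interval also carries the spread of the control libraries. The SD of Acod1 was 17.1% of the mean in control, 1.75% in LPS and 1.74% in LPS + G-CDs. In the LPS + G-CDs group it remained above control by 9.43 ± 0.14 (limma, adjusted p = 2.4e-09), a comparison that uses the same control libraries. Neither overlapping genes nor 50-base words shared with transcripts of other genes were found for Acod1.

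**Figure D1:**
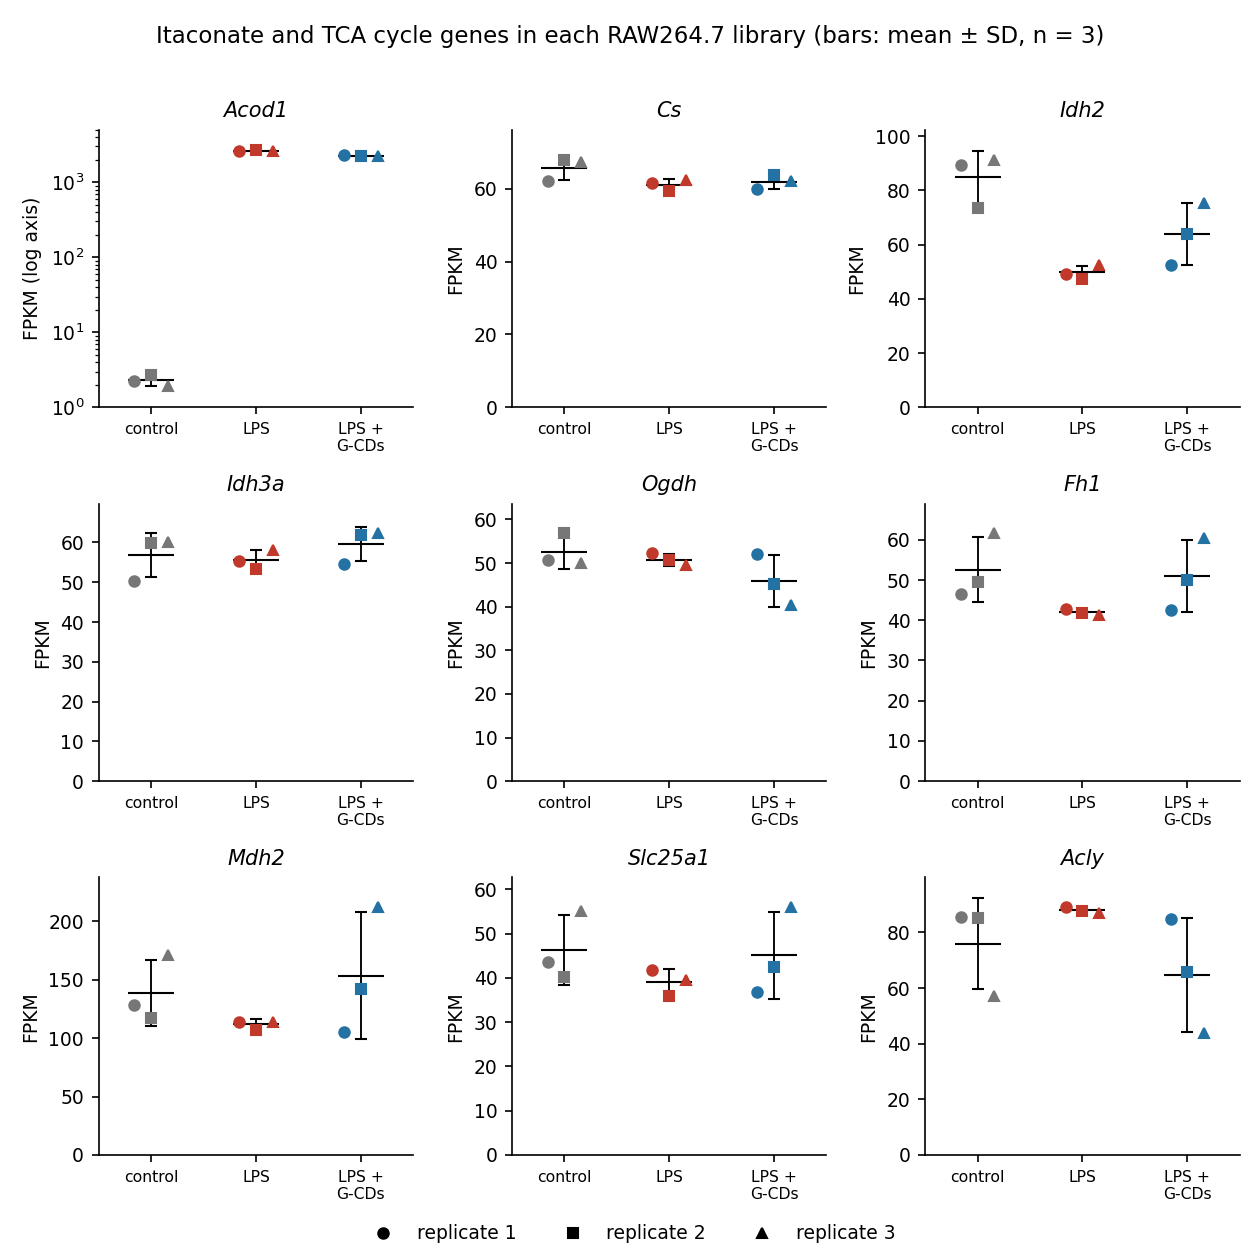
FPKM of the 9 genes in each of the 9 libraries, with a log axis for Acod1 and linear axes from 0 for the others; points are libraries, black lines are the group mean and SD (n = 3). Acod1 rises from about 2.31 to 2624 with LPS, Idh2 is lower with LPS, and the spread of Mdh2 and Acly is widest in the LPS + G-CDs group.

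The genes whose pattern over the 9 libraries was most like that of Acod1 were Cxcl2, Csf3, Ccl5, Il1b and Ptgs2, which encode 2 chemokines, a colony-stimulating factor, a cytokine and a prostaglandin synthase. Likeness was the root mean square difference of log2(FPKM + 1) after each gene was centred on its own mean. It was 0.261 for Cxcl2, 0.359 for Csf3, 0.474 for Ccl5, 0.477 for Il1b and 0.603 for Ptgs2, while the spread of Acod1 itself on this measure was 4.495. Their mean FPKM did not go the same way between the LPS and LPS + G-CDs groups, being 1220 and 1450 for Cxcl2 and 1460 and 931 for Ptgs2.

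Among the 9 genes, Idh2 was the one that passed the test as lower with LPS. Over all genes tested, 31.3% passed the adjusted threshold of 0.05 in LPS against control, and 2 of the 9 members did, Acod1 higher (15.8% of all genes) and Idh2 lower (15.6% of all genes). The median log2 difference was -0.105 over the 9 members and 0.017 over all 11585 genes tested. When the values were rescaled to TPM, which moved the median of all genes to -0.2321, the genes called were 1003 higher and 3059 lower in place of 1827 and 1803, and Fh1, Mdh2 and Slc25a1 were also called lower.

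Idh2 encodes the mitochondrial isocitrate dehydrogenase that reduces NADP, and lies at chr7:80094846-80115392 on the minus strand. Its FPKM was 89.4, 73.5 and 91.4 in control (84.8 ± 9.84), 49.3, 47.5 and 52.5 in LPS (49.7 ± 2.52), and 52.5, 63.9 and 75.3 in LPS + G-CDs libraries (63.9 ± 11.4). Every LPS library lay below every control library, and with G-CDs added every library was above every LPS library, 1 of them only just, while overlapping with control. Idh2 fell with LPS, with a ratio of means of 0.587 and a log2 difference of -0.75 ± 0.16 (SE; limma, adjusted p = 0.0064). The call held in all 19 alternatives, with adjusted p between 0.00014 and 0.033. The difference between LPS + G-CDs and LPS, 0.34 (95% interval -0.02 to 0.70; limma, adjusted p = 0.33), did not pass.

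Cs, at chr10:128337734-128362479 on the plus strand, encodes the citrate synthase that opens the cycle. Its FPKM was 62, 68 and 67.4 in control, 61.5, 59.3 and 62.4 in LPS, and 59.9, 63.7 and 62.1 in LPS + G-CDs libraries. The groups overlapped, and its log2 differences of -0.10 with LPS (95% interval -0.34 to 0.13) and 0.02 between LPS + G-CDs and LPS (-0.22 to 0.26) did not pass the test.

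Idh3a encodes a subunit of the isocitrate dehydrogenase that reduces NAD, and lies at chr9:54586334-54604661 on the plus strand. It was measured at 50.4, 59.9 and 60.1 in control, at 55.3, 53.3 and 58.2 in LPS and at 54.6, 61.8 and 62.3 in LPS + G-CDs libraries. All 3 groups overlapped. The log2 difference of LPS against control was -0.03 (95% interval -0.30 to 0.25).

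Ogdh, at chr11:6291633-6356642 on the plus strand, encodes the dehydrogenase subunit of the 2-oxoglutarate dehydrogenase complex. Its FPKM was 50.6, 56.8 and 49.9 in control, 52.2, 50.6 and 49.5 in LPS, and 52, 45.2 and 40.4 in LPS + G-CDs libraries. These groups overlapped too, with log2 differences of -0.04 with LPS (95% interval -0.33 to 0.24) and -0.15 between LPS + G-CDs and LPS (-0.44 to 0.14).

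Fh1 encodes fumarate hydratase, which makes malate, and lies at chr1:175600374-175625635 on the minus strand. Its FPKM was 46.5, 49.6 and 61.6 in control, 42.9, 41.9 and 41.2 in LPS, and 42.6, 50.1 and 60.5 in LPS + G-CDs libraries. All LPS libraries lay below all control libraries, with a ratio of means of 0.799, but the log2 difference of -0.31 (95% interval -0.67 to 0.05; limma, adjusted p = 0.18) did not pass. The LPS + G-CDs libraries overlapped with both other groups.

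Mdh2, at chr5:135778480-135790398 on the plus strand, encodes the mitochondrial malate dehydrogenase that closes the cycle. Its FPKM was 128, 117 and 171 in control, 114, 107 and 114 in LPS, and 105, 142 and 212 in LPS + G-CDs libraries. The LPS libraries again lay below the control libraries, and the LPS + G-CDs libraries spanned both groups. Neither the log2 difference of -0.29 with LPS (limma, adjusted p = 0.42) nor that of 0.39 between LPS + G-CDs and LPS (95% interval -0.17 to 0.96; limma, adjusted p = 0.39) passed. With a library left out the latter lay between 0.13 and 0.63.

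Slc25a1 encodes the mitochondrial citrate carrier, and lies at chr16:17925223-17928219 on the minus strand. It was measured at 43.6, 40.2 and 55.1 in control, at 41.8, 36 and 39.5 in LPS and at 36.9, 42.5 and 56 in LPS + G-CDs libraries. The groups overlapped, and the log2 difference of LPS against control was -0.23 (95% interval -0.64 to 0.18).

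Acly, at chr11:100476353-100528000 on the minus strand, encodes ATP citrate lyase, which turns exported citrate into cytosolic acetyl-CoA. Its FPKM was 85.6, 85.3 and 57.1 in control, 89.1, 87.6 and 87 in LPS, and 84.7, 65.7 and 43.7 in LPS + G-CDs libraries. The LPS libraries lay above all control libraries, though only 1 control library stood far below them, and the LPS + G-CDs libraries lay below all LPS libraries. Neither the log2 difference of 0.23 with LPS (limma, adjusted p = 0.52) nor that of -0.49 between LPS + G-CDs and LPS (95% interval -1.04 to 0.07; limma, adjusted p = 0.34) passed. With a library left out they lay between 0.04 and 0.33 and between -0.70 and -0.23. Under TPM the difference with LPS was -0.04, so its direction turned with the scaling.

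By overlap alone, 5 of the 9 members had LPS and control libraries that did not overlap, where 52.5% of all genes tested did. The members were Acod1 and Acly above control (27.4% of all genes) and Idh2, Fh1 and Mdh2 below (25.1%). For LPS + G-CDs against LPS, 3 of 9 did not overlap, with Idh2 above (12.9% of all genes) and Acod1 and Acly below (15%), where 27.9% of all genes tested did. For LPS + G-CDs against control it was 1 of 9, Acod1 above, where 34.3% of all genes did, 17.7% above and 16.6% below.

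None of the 9 genes passed the test when G-CDs were added to LPS. In LPS + G-CDs against LPS, 0.492% of all genes tested passed, and 0 of 9 members did by limma. At an unadjusted p under 0.05, 0 of 9 members and 1765 of the 11585 genes passed. At this unadjusted threshold 4 members passed without LPS + G-CDs replicate 1, where 4358 of 11484 genes did. With the replicate block 2 members and 2796 of 11585 genes passed, with the gene-length trend removed 2 members and 3215 of 11585 genes, and with no filter 1 member and 2569 of 25079 genes. By contrast, 0 of 9 passed the adjusted threshold in each of the 19 alternatives, voom on the recovered reads included. The median log2 difference of the members was 0.096, against 0.017 over all genes, with 6 positive and 3 negative. The narrowest interval was that of Cs and the widest that of Mdh2, so a change of Mdh2 by as much as 0.96 would be within the error. In LPS + G-CDs against control, 1 of 9 members passed (Acod1, higher), where 25.3% of all genes did, 12.8% higher and 12.4% lower. Idh2 stood at -0.41 ± 0.16 there (limma, adjusted p = 0.092), and passed in 3 of 19 alternatives. These included TPM (-0.85, adjusted p = 0.00048) and LPS + G-CDs replicate 3 left out (-0.54, adjusted p = 0.032). The other was the gene-length trend removed within groups, which keeps the difference at -0.41 (adjusted p = 0.017).

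**Figure D2:**
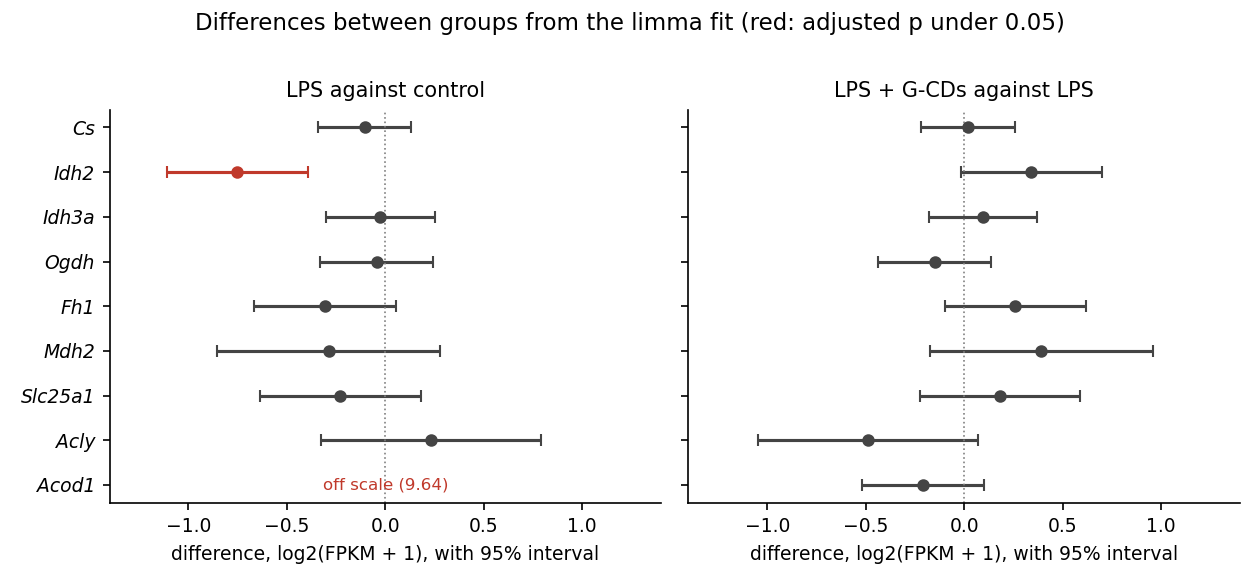
Differences on the log2(FPKM + 1) scale with 95% intervals from the limma fit, for LPS against control (left) and LPS + G-CDs against LPS (right); red marks an adjusted p under 0.05, and the difference of Acod1 with LPS, 9.64, is off the scale. Idh2 stands apart from 0 on the left, and every interval on the right includes 0.

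For 6 of the 9 genes the spread in the LPS + G-CDs group went with gene length, and for Acod1, Cs and Idh3a it did not. Among all genes tested, those of at most 1970 bases had a median of -0.27 from the group mean (log2) in replicate 1 and of 0.304 in replicate 3, and those of at least 6129 bases had 0.235 and -0.233. In control replicate 3 the same short and long genes were at 0.179 and -0.191, and in the LPS libraries the medians of 4 length classes stayed between -0.025 and 0.021. Of the members, Mdh2 (3562 bases) differed from its group mean by -0.48 in replicate 1 and 0.53 in replicate 3, and Slc25a1 (2164 bases) by -0.26 and 0.33. Idh2 (2588 bases) did so by -0.26 and 0.25, and Fh1 (3392 bases) by -0.24 and 0.25. Acly (5279 bases) went the other way, by 0.43 and -0.51, as did Ogdh (5456 bases), by 0.19 and -0.17. Acod1, as short as Idh2 at 2623 bases, differed by only 0.03 and -0.02. Cs, the longest member at 5779 bases, differed by -0.05 and 0.01, where the trend was 0.09 and -0.09, and Idh3a (5072 bases) by -0.12 and 0.07, against the trend of 0.05 and -0.05. For each of the 6 genes the trend at its length was smaller than its own difference in both libraries, at -0.07 and 0.06 for Mdh2, -0.15 and 0.16 for Idh2 and -0.19 and 0.20 for Slc25a1, for example. The trend was removed within each group, which leaves every group difference as it was and changes only the spread. Its part in the differences was therefore not tested. After the removal the members called were still 2 with LPS, where 4483 of 11585 genes were called. For LPS + G-CDs against LPS they were 0, where 585 genes were called.

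**Figure D3:**
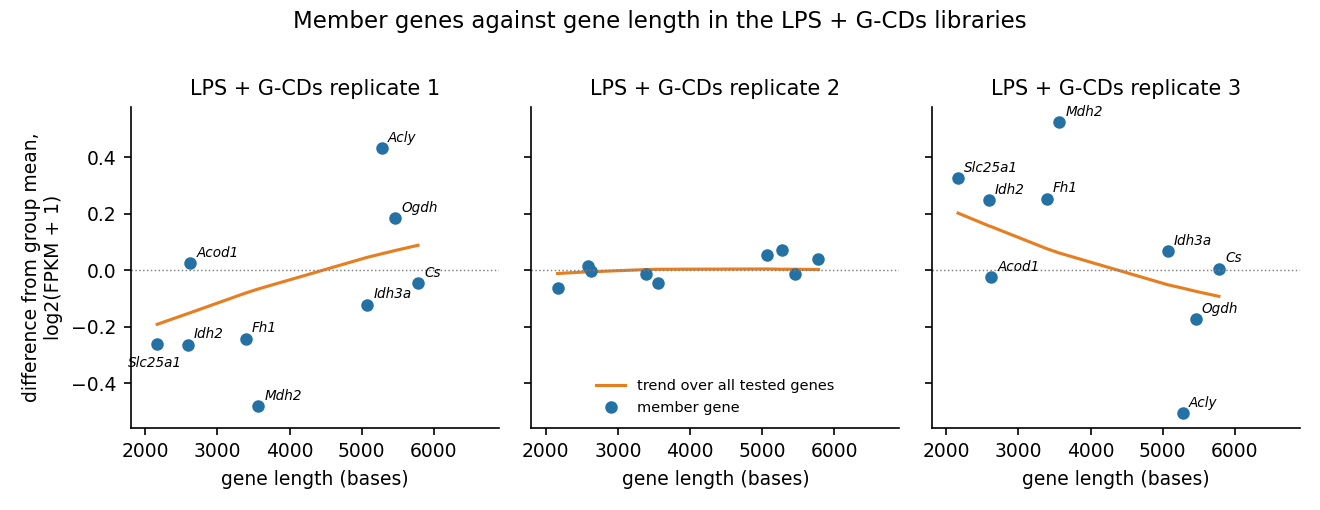
Difference of each member from its group mean, in log2(FPKM + 1), against gene length in bases, in the 3 LPS + G-CDs libraries; points are genes and the line is the trend over all tested genes. Mdh2 lies lowest in replicate 1 and highest in replicate 3, Acly the reverse, and all members are near 0 in replicate 2.

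The order of levels changed mainly at Acod1. In control it was the lowest of the 9, at 2.31 against 46.3 for Slc25a1 (FPKM), and with LPS it was the highest, at 2624 against 112 for Mdh2, with libraries that did not overlap in either case. Mdh2 led the other 8 in all 3 groups, at 139, 112 and 153, and did not overlap with the next gene in any group. In control the libraries of Idh2, Acly and Cs overlapped in turn, and so did those of Idh3a, Fh1, Ogdh and Slc25a1. With LPS, Acly (87.9), Cs (61.1), Idh3a (55.6) and Ogdh (50.7) stood in this order without overlap, Idh2 (49.7) overlapped with Ogdh, and Fh1 (42.0) with Slc25a1 (39.1). In the LPS + G-CDs group all neighbours from Acly down to Slc25a1 overlapped. Idh2 moved from the 2nd place in control to the 7th with LPS.

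The gene nearest in pattern to each of the other 8 was Parvg for Cs (0.04), Tsen15 for Idh2 (0.063), Sephs1 for Idh3a (0.038), Zdhhc3 for Ogdh (0.049), Rxrb for Fh1 (0.058), Mydgf for Mdh2 (0.048), Gm10069 for Slc25a1 (0.06) and Smchd1 for Acly (0.039), on the same measure over 9 libraries. With spreads of only 0.063 to 0.342 for these 8 genes themselves, a small distance is easily met. Tsen15, nearest to Idh2, had a mean FPKM of 6.59, 3.59 and 4.56 in control, LPS and LPS + G-CDs.

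Of 12 other enzymes of the cycle, all 12 were tested, and with LPS 1 was higher (15.8% of all genes were), 1 was lower (15.6%) and 10 did not pass. Dld, the dihydrolipoamide dehydrogenase shared by the pyruvate and 2-oxoglutarate complexes, had an FPKM of 44.1, 45.3 and 46.9 in control and of 69.8, 69.5 and 70.5 with LPS. It rose by 0.61 ± 0.11 (SE, log2; limma, adjusted p = 0.0032), without overlap. Sdha, the catalytic subunit of succinate dehydrogenase, had 79.7, 74 and 75.8 in control and 64.2, 54.6 and 58.8 with LPS, and fell by 0.37 ± 0.11 (limma, adjusted p = 0.034). That call was lost without each control library, each LPS library or LPS + G-CDs replicate 2 left out in turn, with adjusted p between 0.056 and 0.15. The other subunits, named after their values were seen, stood at -0.71 for Sdhb, -0.43 for Sdhc and -0.46 for Sdhd and did not pass, though Sdhb passed in 6 of the 19 alternatives and Sdhc and Sdhd in 2 each. Idh3b (-0.11), Sucla2 (-0.08) and Suclg1 (-0.24), named in the same way, passed as lower in 1 of the 19 each. In LPS + G-CDs against LPS, 0 of the 12 passed. The median of the 12 was -0.111 with LPS and 0.165 for LPS + G-CDs against LPS, where that of all genes was 0.017 in both.

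Among 19 genes for pyruvate entry and anaplerosis, which is the refilling of the cycle, 16 were tested, and with LPS 4 fell (15.6% of all genes did) and 0 rose (15.8%). Pdp1, a phosphatase that switches pyruvate dehydrogenase on, had an FPKM of 2.33, 2.41 and 2.01 in control and 0.482, 0.579 and 0.504 with LPS, from 30 to 36 reads. It fell by 1.09 on the log2(FPKM + 1) scale (limma, adjusted p = 0.00042), which understates the change at such levels, and the ratio of means was 0.232. Pdp1 passed the filter only with its control libraries, so its fall and its being tested are not independent. Pdk1, a kinase that switches it off, fell by 0.79 (limma, adjusted p = 0.01), with FPKM of 17.3, 14.6 and 11.2 in control and 7.63, 7.58 and 8.02 with LPS. Glud1, glutamate dehydrogenase, named after its values were seen, fell by 0.50 (limma, adjusted p = 0.015), a call lost without LPS replicates 1, 2 or 3 in turn (adjusted p 0.057, 0.065 and 0.057). Pcx, pyruvate carboxylase, fell by 0.63 (limma, adjusted p = 0.003). The other kinase and phosphatase tested, Pdk3 (0.07) and Pdp2 (0.30), named after their values were seen, did not pass.

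In LPS + G-CDs against LPS, where 0.492% of all genes passed, Pcx was the only one of the 16 tested here that did. Its FPKM was 5.36, 4.48 and 5.05 in control, 2.75, 3.12 and 2.71 in LPS, and 5.52, 5.52 and 4.77 in LPS + G-CDs libraries. The LPS libraries lay below both other groups, which overlapped with each other. The ratio of LPS + G-CDs to LPS was 1.84, and the log2 difference 0.70 ± 0.11 (SE; limma, adjusted p = 0.043). The difference lay between 0.65 and 0.88 in all 19 alternatives, and passed in 6 of them. Of the libraries left out in turn, LPS replicates 1, 2 and 3 gave adjusted p of 0.27, 0.18 and 0.24, LPS + G-CDs replicates 2 and 3 gave 0.28 and 0.065, and control replicates 2 and 3 gave 0.072 and 0.069. With the replicate block it was 0.072, and with TPM 0.31. The values rest on between 176 and 466 reads per library. The library protocol does not mark strand, and Lrfn4 overlaps Pcx on the other strand, with a mean FPKM of 6.86 in control, 3.13 in LPS and 3.24 in LPS + G-CDs.

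In the cytosol and at the mitochondrial membrane, 11 genes that handle citrate, malate or acetyl-CoA were listed and 10 were tested. With LPS 5 fell (15.6% of all genes did) and 0 rose (15.8%), and the median of the 10 was -0.412 against 0.017 over all genes. Slc25a10, the dicarboxylate carrier, had an FPKM of 16.8, 23.6 and 24.4 in control and 8.52, 7.53 and 8.12 with LPS, and fell by 1.30 ± 0.22 (SE, log2; limma, adjusted p = 0.002). Idh1, the cytosolic counterpart of Idh2, had 26.4, 32.9 and 29.4 in control and 12.9, 13.1 and 11.5 with LPS, and fell by 1.17 ± 0.12 (limma, adjusted p = 9.3e-05). So both isocitrate dehydrogenases that reduce NADP were lower with LPS. Mdh1, the cytosolic malate dehydrogenase, had 109, 88.8 and 114 in control and 57.7, 57.1 and 57.9 with LPS, and fell by 0.83 ± 0.20 (limma, adjusted p = 0.013). The other 2, named after their values were seen, were Acss2 (-0.56), an acetyl-CoA synthetase, and Aco1 (-0.47), the cytosolic aconitase, whose call was lost without control replicates 1 or 2, any LPS library or LPS + G-CDs replicate 2 (adjusted p between 0.05 and 0.096).

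In LPS + G-CDs against LPS, 0 of these 10 passed. Idh1 had 16.7, 16.1 and 15.3 there, above every LPS library and below every control library, with a log2 difference of 0.33 (limma, adjusted p = 0.29). Mdh1 had 63.2, 81 and 112, which reached from just above LPS to the level of control. Fasn, fatty acid synthase, stood at -0.84 (limma, adjusted p = 0.27), and Acaca, of the same list, at -0.75 (adjusted p = 0.28). Both were named after their values were seen, and each passed in 1 of 19 alternatives.

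**Figure D4:**
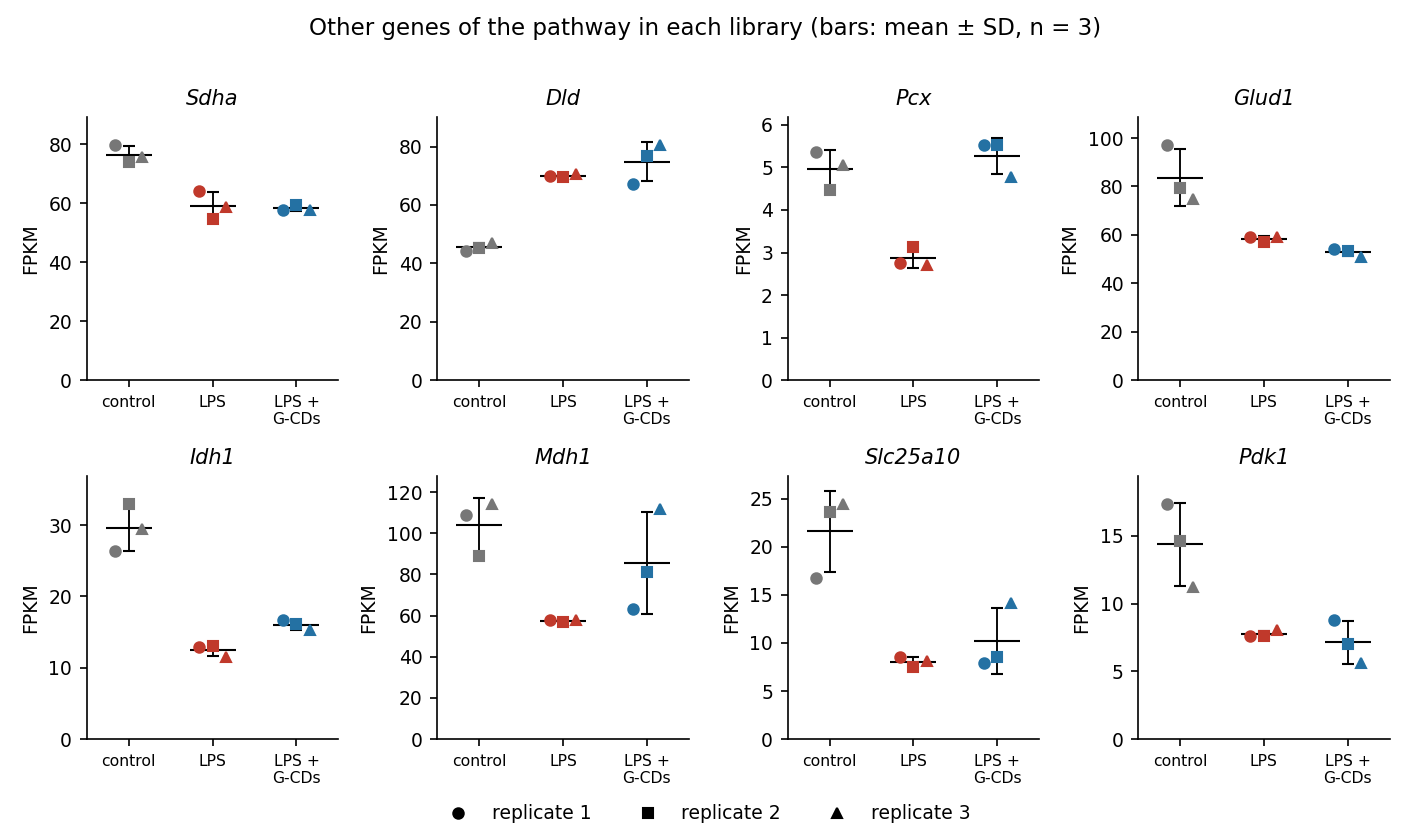
FPKM of 8 other genes of the pathway in each library, on linear axes from 0; points are libraries and black lines are the group mean and SD (n = 3). Idh1, Mdh1, Slc25a10 and Pdk1 are lower with LPS, Dld is higher, and Pcx with LPS + G-CDs is again at the control level.

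Of 5 genes that degrade, carry or sense itaconate, 2 passed the filter, and 1 of the 2, Auh, fell with LPS (15.6% of all genes did). Auh passed the filter only with its control libraries, where it was highest, so its fall and its being tested are not independent. Auh, a mitochondrial hydratase of the route that breaks itaconate down, had an FPKM of 1.57, 1.48 and 1.62 in control and 0.748, 0.749 and 0.811 with LPS, and fell by 0.53 (log2; limma, adjusted p = 0.011). With the gene-length trend removed within groups, which keeps the difference at -0.53, the adjusted p was 0.072. Clybl, which acts later in that route and was named with Oxgr1 after its values were seen, had 5.35, 4.92 and 7.47 in control and 3.66, 3.51 and 4.38 with LPS, without overlap, at a log2 difference of -0.50 (limma, adjusted p = 0.11; passed in 4 of 19 alternatives). Oxgr1, a receptor for itaconate, was listed at 0 in all 9 libraries.

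Of 6 factors that regulate Acod1 or respond to itaconate, 2 rose (15.8% of all genes did) and 2 fell (15.6%) with LPS. Nfkbiz, which encodes IκBζ, was at 3.95, 3.25 and 2.8 in control and at 164, 168 and 158 with LPS, and rose by 5.25 (log2; limma, adjusted p = 7.6e-08). Atf3, a stress-induced transcription factor, rose by 3.45 (limma, adjusted p = 1.9e-07). Tfeb, a regulator of lysosomal genes, fell by 2.14 (limma, adjusted p = 2.5e-05), from 4.91 to 0.342, with a ratio of means of 0.0698. Tfeb too passed the filter only with its control libraries, so its fall and its being tested are not independent. Keap1 fell by 0.38 (limma, adjusted p = 0.022), but its call was lost without control replicate 2 (adjusted p 0.066) or without LPS replicates 1, 2 or 3 in turn (0.068, 0.1 and 0.055). Gm16754 overlaps Keap1 on the other strand.

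With G-CDs added, 0 of the 6 factors passed. Nfkbiz was at 112, 94.3 and 72.3, below every LPS library, with a log2 difference of -0.83 (limma, adjusted p = 0.11; passed in 2 of 19 alternatives). Atf3 was at 84.3, 90 and 108, above every LPS library (64.4, 58.1 and 54.7), with 0.66 (limma, adjusted p = 0.09; passed in 2 of 19). Irf1, a known activator of Acod1 and named after its values were seen, was at 3.64, 4.15 and 3.72 with LPS and at 4.66, 5.9 and 6.3 with LPS + G-CDs, with 0.45 (limma, adjusted p = 0.26). These factors thus did not share a direction, and none of their differences from LPS can be told from 0 at the adjusted threshold.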

How the data were processed

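The authors deposited FPKM values per gene and library, with gene lengths and coordinates; the submitters' notes name GRCm38 and mm10, and the aligner, counter and annotation are not given in the sources used here. Coordinates equaled GENCODE mouse M21 for 53499 of 54409 shared genes and for all 9 members. FPKM times gene length gave whole reads, within 0.05 reads, for 100.0% of values; the library size the authors divided by was 0.88 to 1.14 times the reads on genes. Each column was matched to a sample by name, and 0 columns belonged to other samples.

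Genes reaching an FPKM of 1 in 3 or more of the 9 libraries (11585) were fitted as log2(FPKM + 1) with limma 3.58.1 in R 4.3.3 (eBayes with trend, two-sided), and p-values were adjusted over all of them. This scale understates changes of low genes. The 3 comparisons share libraries. The fit was tested on simulated data. Alternatives were a pseudocount of 0.1, no filter, a filter at 5, TPM, median-of-ratios scaling, 6 libraries, no trend, voom, removal of the gene-length trend, the replicate number as a block, and leaving out each library. Removal of the gene-length trend works within groups and cannot move a group difference. Between control and LPS libraries of 1 number, deviations from group means had r of 0.103, 0.137 and 0.113, just over the limit of 0.1. For LPS and LPS + G-CDs they were 0.095, 0.08 and 0.143, and for control and LPS + G-CDs 0.28, 0.057 and 0.653. Libraries of unlike number reached 0.504, for control 2 and LPS + G-CDs 1. The labels do not say what the numbers stand for, and pairing by number was not established.

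Members and lists were chosen with earlier results of these data known. Besides the members, genes were named if they passed in LPS + G-CDs against LPS, were among the 3 largest changes past the threshold of their list with LPS in a direction, or were nearest in pattern; other genes were named after their values were seen. A gene of the listed factors is not reported here.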

Additional observations from a re-analysis of the deposited data

How the results depend on the processing

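The calls of Acod1 and Idh2 with LPS held in all 19 alternatives, and LPS + G-CDs against LPS gave 0 members in each. TPM called 5 members (and 4062 of 11585 genes) with LPS and 6 (3979 genes) for LPS + G-CDs against control. The medians of all genes were then -0.2321 and -0.3759. It turned Acly with LPS (-0.04), and Cs (-0.15) and Idh3a (-0.07) for LPS + G-CDs against LPS. It also turned Idh3a (-0.37) and Mdh2 (-0.33) for LPS + G-CDs against control. TPM divides all genes of a library by its summed FPKM. That sum was 271284.1 to 314326.5 in control, 347815.4 to 349698.6 in LPS and 333124.8 to 472870.3 in LPS + G-CDs libraries. Why the sums differ was not tested. With the length trend removed, members called for LPS + G-CDs against control were 2 (3604 genes), as they were without LPS + G-CDs replicate 3 (2883 of 11480 genes; range 1 to 2 over libraries left out). With a library left out, values with LPS lay between 0.04 and 0.33 for Acly, -0.40 and -0.13 for Mdh2, -0.32 and -0.10 for Slc25a1, -0.39 and -0.19 for Fh1, -0.11 and 0.02 for Idh3a and -0.08 and 0.01 for Ogdh. For LPS + G-CDs against LPS they lay between 0.13 and 0.63 for Mdh2, -0.70 and -0.23 for Acly, 0.02 and 0.31 for Slc25a1, 0.13 and 0.38 for Fh1, 0.22 and 0.47 for Idh2 and -0.24 and -0.06 for Ogdh, and, for LPS + G-CDs against control, Idh3a between -0.01 and 0.13, Fh1 between -0.17 and 0.08, Mdh2 between -0.16 and 0.35 and Slc25a1 between -0.21 and 0.09.

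Genes called for LPS + G-CDs against LPS, 57 of 11585, were 25 with the pseudocount of 0.1, 27 with TPM, 25 with 6 libraries and 585 with the length trend removed. They were between 10 and 276 with a library left out: 276 without LPS + G-CDs replicate 1, 11 and 29 without replicates 2 and 3, 12, 10 and 13 without LPS replicates 1, 2 and 3, and 23 without control replicate 2. For LPS + G-CDs against control, 2927 became 1789 with 6 libraries and between 1916 (without LPS + G-CDs replicate 2) and 3247 with a library left out. With the replicate block, 4104, 53 and 3347 genes were called in the 3 comparisons, and the members called stayed at 2, 0 and 1. With 3 libraries a group, differences within the intervals given cannot be resolved.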
